A study of Mus musculus with 8 samples.

Results

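Male mouse livers with an albumin-driven deletion of Stat5a and Stat5b were compared with livers of floxed control males, gene by gene, across 9317 genes. The genes were all rows of the deposited expression table with a mean of at least 1 FPKM (fragments per kilobase of transcript, scaled to the size of the library, a level per length) in control males or in knockout males, out of 24197 listed genes. Of the 9317 genes, 8574 reached that floor in both means, 428 only through the knockout mean and 315 only through the control mean, so that those 428 and 315 genes were taken in partly because their means differ. Nearest to the floor, Arsk was taken in with means of 0.879 FPKM in controls and 1.001 FPKM in knockouts, and Fam175a was left out with 0.818 and 0.9998 FPKM.

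The knockout males carried a floxed Stat5a-Stat5b locus, on a mixed C57BL/6 x 129J background, together with a Cre transgene driven by the albumin promoter, brought in from FVB/N mice. Control males carried the floxed locus, and the labels give them no Cre. The albumin promoter is used to drive Cre in hepatocytes, and deletion by cell type was not measured here. All animals were 8 to 12 weeks old. Each of the 2 groups had 2 libraries of ribosome-depleted, stranded RNA, and the labels describe each as pooled livers without saying how many animals went in. Every p-value below therefore rests on the spread between pools, and with 2 pools a side an exact permutation test cannot go below p = 0.333. Floxed and knockout females, with 2 libraries each, were used only where the text says so.

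Growth hormone binds its receptor on hepatocytes and activates the kinase JAK2, which phosphorylates STAT5 proteins. These dimerize, enter the nucleus and bind DNA at sites of the form TTCNNNGAA. In male rodents the pituitary releases growth hormone in separated pulses and in females more continuously, and liver STAT5 follows this pattern, which sets much of the difference between the livers of the sexes in steroid and drug metabolism, urinary proteins and serum proteins. Hepatic STAT5 also drives production of the growth factor IGF1.

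Single libraries were recovered from the group means as whole read numbers, and the libraries of a group can be told apart only by their totals, so wherever 2 values are given for a group the deeper library comes first. Library totals were 29149624 and 6192515 in control males and 31686769 and 29512042 in knockout males. Reads in genes ran from 2288033 in the shallower control library to 10895704 in the shallower knockout library. The median over genes of the SD relative to the mean was 0.128 in controls and 0.0964 in knockouts. Libraries of the same group lay more than 2-fold apart, with 0.1 FPKM added, for 443 genes in controls and 283 in knockouts. The titles carry library codes of unstated meaning, G140 for both control males and G138 and G140 for the knockout males, and since no recovered library could be tied to a code, a difference between codes cannot be told apart from one between pools. All 26 hepatocyte markers checked were above the floor, and their sum without albumin was 17452 and 18014 FPKM in control and 16287 and 18836 FPKM in knockout males, in overlapping ranges. The sum hides changes of single markers: 17 had a lower mean in knockouts. Both knockout libraries lay below both controls for 8, beside 20.6% of all genes, and above them for 5, beside 19.4%. The authors' deposited table calls Serpina1a and Serpina1c lower and Hpx, also an acute phase gene, higher.

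Most transcripts stayed close to the control level. The median log2 ratio of knockout to control means, with 0.1 FPKM added to both, was -0.04, and the middle of the distribution ran from -0.20 to 0.15 between its quartiles. In the authors' deposited table, whose adjusted p-values come from edgeR, 265 of the 9317 genes were higher and 157 lower at an adjusted p under 0.05, which is 2.84% and 1.69% (4.53% in all). Over all 24197 listed genes the same rule called 336 higher and 192 lower, or 1.39% and 0.793% (2.18% in all). Among the 8574 genes at the floor in both means, 170 were higher and 124 lower. These shares are the background for every gene group below, and "rose" and "fell" are used below only for genes called in that table. A gene with a control mean under 1 FPKM was taken in only through the knockout mean, which favours rises. Lists with many such genes therefore lean toward rises, and those with a knockout mean under 1 FPKM toward falls. No separate background was used for them. Changes of at least 2-fold were seen for 293 genes upward (3.14%) and 196 downward (2.1%). Both knockout libraries lay above both control libraries for 1805 genes (19.4%) and below them for 1917 (20.6%), so a lack of overlap alone says little with 2 libraries a side. A refit with limma voom on the recovered reads called 89 of the genes higher and 89 lower (0.976% each of 9119 tested), and over all 12980 genes it tested 0.77% and 0.747%. Of the 178 it called among the 9317, the authors' table also calls 164. In whole liver, a lower level per cell and fewer cells of a type cannot be told apart.

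**Figure D1:**
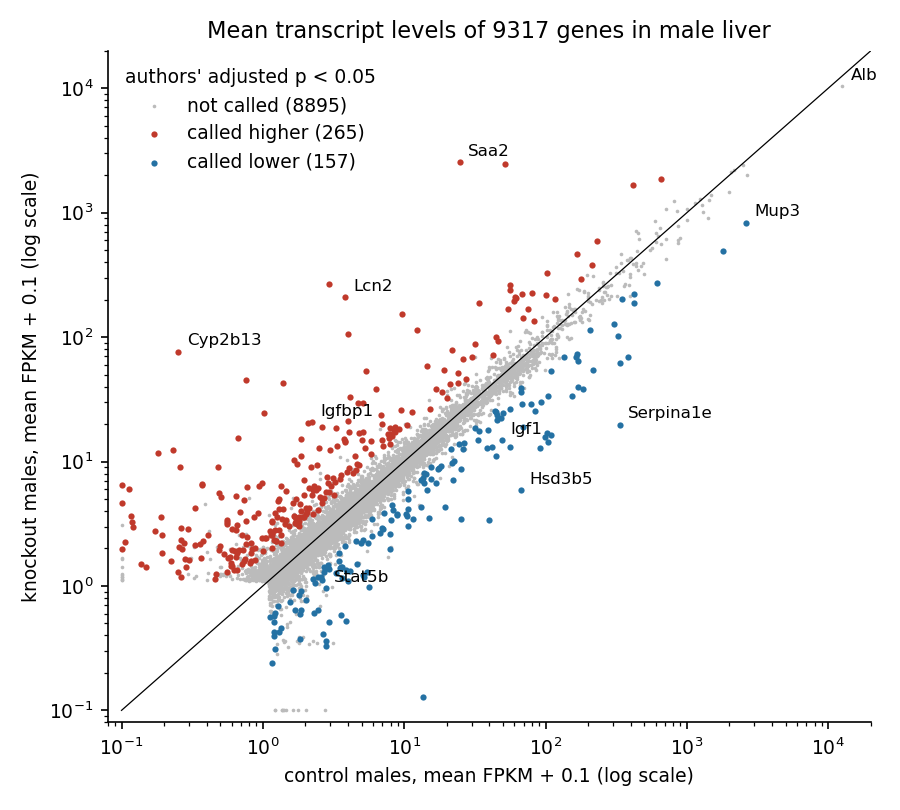
Mean level of each of the 9317 genes in control males (x axis) and knockout males (y axis), in FPKM + 0.1 on log scales, coloured by the call in the authors' deposited table. Most points lie along the line of equal levels, while 265 genes called higher and 157 called lower spread away from it, with Cyp2b13, Saa2 and Lcn2 far above and Hsd3b5 and Serpina1e far below.

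The targeted genes were lower in the libraries labelled as knockout. Stat5b (chromosome 11, 100642044 to 100711899 on mm9) stood at 1.95 and 3.41 FPKM in the control libraries and 0.684 and 1.03 FPKM in the knockout libraries, and the groups did not overlap. It came out 2.97-fold lower by the authors' deposited table (adjusted p = 3.1e-06). Stat5a (chromosome 11, 100720664 to 100746483) had means under the floor of 1 FPKM in both groups, with 68 and 28 reads in controls and 16 and 26 reads in knockouts, and came out 4.49-fold lower by the authors' deposited table (adjusted p = 1.4e-05). Its levels were 0.6 and 1.16 FPKM in controls and 0.13 and 0.227 FPKM in knockouts, again without overlap. Values for whole genes do not separate the deleted exons from the rest of the locus.

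Around the receptor, no gene acting upstream of STAT5 was called except the phosphatase gene Ptpn1, while the feedback gene Socs2 fell. Of 22 genes of the growth hormone receptor pathway, 17 were above the floor, 2 rose and 2 fell. Ghr, the growth hormone receptor, had 75.7 and 81.8 FPKM in controls and 59.3 and 70.05 in knockouts, a difference that did not pass the test (adjusted p = 1 in the authors' deposited table). Jak2 had 2.04 and 3.099 FPKM against 2.49 and 2.75, with overlapping groups. The prolactin receptor gene Prlr had 7.38 and 5.45 FPKM in controls and 4.18 and 3.41 in knockouts, without overlap but with an adjusted p of 0.15 in the authors' deposited table.

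Among the suppressors of cytokine signalling, Socs2, which dampens growth hormone signalling, fell from 4.76 and 5.33 FPKM to 0.725 and 1.54 FPKM. It is listed as 4.43-fold lower by the authors' deposited table (adjusted p = 4.3e-10), while limma voom gave a log2 change of -2.24 (standard error 0.53, adjusted p = 0.088). Cish, another feedback gene of STAT5 signalling, was low in only 1 knockout library, with 0.511 and 2.76 FPKM beside 2.57 and 2.84 in controls, and was not called. Socs3, which responds to interleukin 6 type cytokines, was high in the other knockout library, with 0.649 and 3.37 FPKM beside 0.605 and 0.771 in controls (adjusted p = 0.26 in the authors' deposited table).

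Among genes that work beside STAT5 in the pathway, the phosphatase gene Ptpn1 was called higher. Stat3, which transmits interleukin 6 signals, had 8.13 and 11.2 FPKM in controls and 10.7 and 14.4 in knockouts, with overlap. Ptpn1, a tyrosine phosphatase gene, rose from 1.91 and 1.802 FPKM to 3.63 and 3.37 FPKM (authors' deposited table, adjusted p 0.0066), whereas the phosphatase gene Ptpn11 stood at 5.83 and 6.48 FPKM and 5.51 and 6.32 FPKM in overlapping groups. Insr, the insulin receptor, had 9.61 and 10.4 FPKM in controls and 9.55 and 11.4 in knockouts. The insulin receptor substrates Irs1 and Irs2, the adaptors Sh2b1 and Shc1, and the phosphatase Ptpn6 were not called either, with log2 ratios of -0.23, 0.33, 0.14, 0.14 and 0.29. Lepr, Grb10, Socs1 and Igf1r of the same list had means under 1 FPKM in both groups, with log2 ratios of -0.04, -0.82, 0.26 and 0.21.

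The hormone made under STAT5 and its carriers in blood fell, and 1 binding protein rose. Of 9 genes of the IGF axis above the floor, 3 fell and 1 rose. Igf1 (chromosome 10, 87321800 to 87399792 on mm9) fell from 47.3 and 51.1 FPKM to 11.7 and 17.95 FPKM. Both knockout libraries lay far below both controls, and its entry in the authors' deposited table is 3.29-fold lower (adjusted p = 4.4e-10). Igfals, which encodes the acid-labile subunit of the circulating IGF complex, fell from 27.2 and 23.4 FPKM to 6.204 and 10.995 FPKM, and Igfbp3, the main binding protein of that complex, fell from 2.83 and 2.71 FPKM to 1.28 and 1.46 FPKM. Their adjusted p-values in the authors' deposited table were 4.7e-06 and 0.0061, and with limma voom 0.024 and 0.017. Igfbp1, a binding protein that insulin represses in liver, rose from 1.35 and 2.87 FPKM to 26.2 and 14.96 FPKM, 11.02-fold higher by the authors' deposited table (adjusted p = 4.4e-17). Igfbp2 with 49.04 and 61.5 FPKM against 66.8 and 85.5, and Igfbp4 with 262 and 249 FPKM against 246 and 300.1, were not called.

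**Figure D2:**
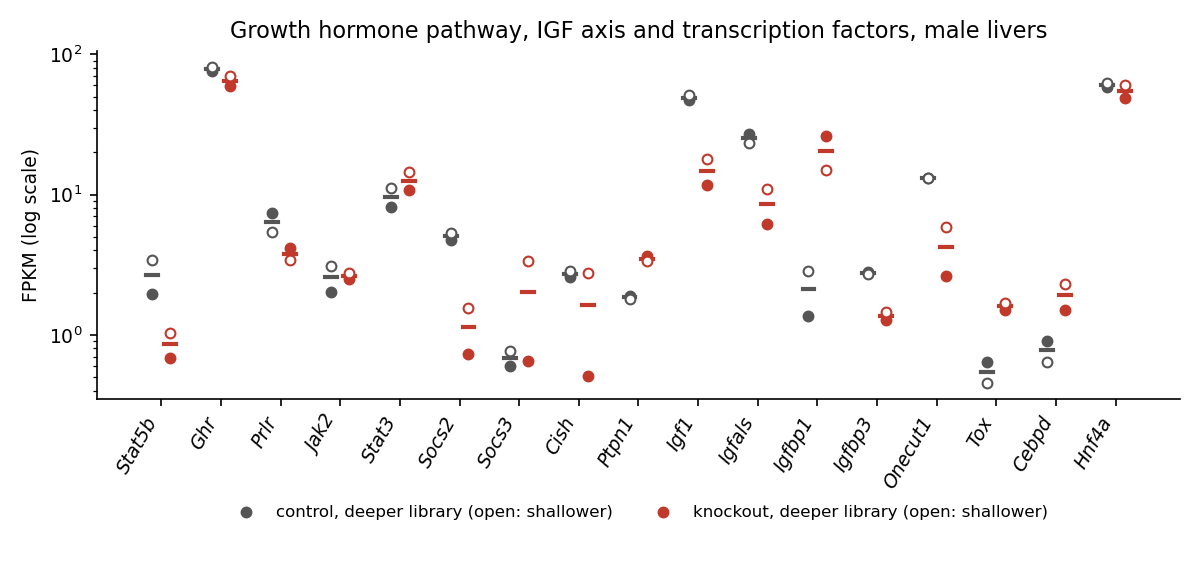
Level in each male library, in FPKM on a log scale, of genes of the growth hormone pathway, the IGF axis and liver transcription factors. Filled points are the deeper and open points the shallower library of a group, short lines are means, and Igf1, Igfals, Socs2 and Onecut1 lie lower and Igfbp1 higher in both knockout libraries, while the points of Cish and Socs3 overlap.

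Promoters were looked at for the letters that STAT5 binds. In windows from 250 bases before to 50 bases after the start of a transcript, taken from RefSeq on GRCm38.p6, TTCNNNGAA occurred in 8.3% of all 32851 promoters. Since only 74% of the 9317 genes had a promoter in that table by symbol, groups of genes were not compared by it. The 2 promoters below belong to genes that fell and hold the motif, shown in capitals. The sequence of Igfals (chr17:24877594-24877893, plus strand) holds it once, and that of Keg1 (chr19:12695540-12695839, plus strand), whose level fell from 72.2 and 65.5 FPKM to 11.9 and 25.7 FPKM, holds it 2 times. Motif matches are a description of the letters in these windows. Igfals has 3 promoters in the table, of which the one holding the motif is shown.
Igfals promoter: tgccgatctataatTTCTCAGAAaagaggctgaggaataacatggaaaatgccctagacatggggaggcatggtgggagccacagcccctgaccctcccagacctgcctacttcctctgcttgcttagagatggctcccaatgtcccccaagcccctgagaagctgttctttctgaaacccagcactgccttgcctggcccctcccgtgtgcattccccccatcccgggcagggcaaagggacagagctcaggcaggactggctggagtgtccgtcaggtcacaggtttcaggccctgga
Keg1 promoter: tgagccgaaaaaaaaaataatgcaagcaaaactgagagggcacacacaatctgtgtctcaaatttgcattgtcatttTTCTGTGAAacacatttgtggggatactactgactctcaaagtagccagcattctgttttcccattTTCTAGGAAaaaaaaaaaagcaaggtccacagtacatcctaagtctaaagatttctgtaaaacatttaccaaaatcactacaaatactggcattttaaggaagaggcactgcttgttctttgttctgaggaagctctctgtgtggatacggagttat

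Transcription factors of the liver were called in both directions. Of 55 above the floor, 2 fell and 2 rose, beside 1.69% and 2.84% over all 9317 genes, and limma voom called 1 lower and 0 higher. Onecut1, a hepatocyte factor also called HNF6, fell from 13.2 and 13.1 FPKM to 2.63 and 5.84 FPKM and came out 3.12-fold lower by the authors' deposited table (adjusted p = 2.1e-05). Tox, which is higher in female liver, rose from 0.638 and 0.453 FPKM to 1.52 and 1.69 FPKM, and Cebpd, a factor of the acute phase, from 0.911 and 0.643 FPKM to 1.49 and 2.32 FPKM. Their adjusted p-values in the authors' deposited table were 0.00034 and 0.022. Tox and Cebpd had control means under 1 FPKM, so only the knockout mean took them in, which favours rises.

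Several hepatocyte factors had similar levels in both groups. Hnf4a stood at 58.8 and 62.1 FPKM in controls and 48.7 and 60.9 FPKM in knockouts. Cebpa had 48.4 and 55.7 FPKM against 29.99 and 50.2 FPKM, and Ppara, the receptor that drives fatty acid oxidation, 22.7 and 18.6 FPKM against 20.04 and 25.03 FPKM. Bcl6, a repressor that is higher in male liver and binds many sites shared with STAT5, had 5.49 and 3.29 FPKM in controls and 6.54 and 5.57 in knockouts and was not called in males, while in females it was 3.97-fold higher with an adjusted p of 3.4e-11 in the authors' deposited table. Cux2, a factor of female liver, stayed under the floor with 0.443 and 0 FPKM in control and 0.278 and 0.126 FPKM in knockout males.

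Male-biased liver genes, those that normal males express more than females, were mostly lower in the knockout. Of 39 listed, 34 were above the floor, 26 fell and none rose in the authors' calls, against a background of 1.69% of genes falling, and limma voom called 17 of the 34 lower and 0 higher, with 3 of the 34 having a log2 ratio above 0. Their median log2 ratio was -1.80, with -2.36 in the deeper and -1.42 in the shallower knockout library. Hsd3b5 (chromosome 3, 98422558 to 98449457 on mm9), a steroid-metabolizing dehydrogenase, fell from 44.5 and 89.5 FPKM to 3.67 and 7.84 FPKM. Hsd3b2 of the same family fell from 34.97 and 54.5 FPKM to 7.01 and 14.8 FPKM. In the authors' deposited table they were 11.3-fold lower and 4.03-fold lower with adjusted p-values of 1.5e-18 and 5.1e-08. Cyp7b1, an oxysterol hydroxylase, fell from 71.7 and 136 FPKM to 8.8004 and 19.5 FPKM, and both knockout libraries lay far below the lower control.

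For some male genes the control pools were far apart. Elovl3, a fatty acid elongase, had 5.51 and 74.4 FPKM in controls and 2.72 and 3.91 FPKM in knockouts, so that the deeper control library was close to the knockouts. Serpina1e, an antitrypsin gene, had 629 and 41.4 FPKM in controls against 15.7 and 23.7 FPKM, with the high control in the other pool. The authors' deposited table calls both, with adjusted p-values of 0.00046 and 0.00017, while limma voom gave 0.3 and 0.24. Selenbp2, a selenium-binding protein gene, had 73.9 and 146 FPKM in controls and 21.2 and 11.02 FPKM in knockouts without such closeness (limma voom adjusted p 0.014).

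Other genes that fell were male-biased genes of growth factor reception and peroxisomes, and genes of steroid metabolism. Egfr, the receptor of epidermal growth factor, fell from 70.8 and 98.6 FPKM to 19.1 and 31.4 FPKM. Nudt7, a peroxisomal hydrolase of coenzyme A, went from 67.2 and 90.4 FPKM to 18.8 and 39.01 FPKM. Srd5a1, the steroid 5-alpha-reductase that makes dihydrotestosterone, belongs to the list of steroid metabolism and fell from 15.7 and 12.97 FPKM to 4.32 and 7.39 FPKM (authors' deposited table, adjusted p 0.00032). Hsd17b2, which inactivates estradiol and testosterone, fell from 35.1 and 41.6 FPKM to 10.4 and 15.1 FPKM (limma voom adjusted p 0.0062). Of the 34 retinoid and steroid genes above the floor, 6 fell and 2 rose. Among male genes without a call, Cyp2d9 had 157 and 247 FPKM against 143 and 129.7 FPKM and Cyp4a12a 66.05 and 86.1 FPKM against 51.3 and 44.3 FPKM.

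The major urinary protein family, pheromone carriers that liver secretes for excretion in urine, was lower as a whole. All 20 listed Mup genes were above the floor, 13 fell and none rose, and limma voom called 6 lower and 0 higher. Their summed level was 4486 and 5970.1 FPKM in controls and 1509.8 and 3027 FPKM in knockouts, a 2.3-fold lower mean, with the shallower knockout library closer to the controls. Mup3, the most abundant member (chromosome 4, 61744510 to 61748346 on mm9), fell from 2626 and 2612 FPKM to 506 and 1154 FPKM. Mup7 fell from 87.7 and 109 FPKM to 10.4 and 20.6 FPKM and Mup16 from 70.3 and 135 FPKM to 14.3 and 19.2 FPKM. Mup20, which encodes the pheromone darcin, fell from 187 and 573 FPKM to 34.5 and 104 FPKM. The calls for Mup15 and Mup19 rested on 1 control library, with 26.8 and 0 FPKM against 0.0355 and 0.0191 for Mup15 and 7.03 and 0.552 FPKM against 0.18 and 0.656 for Mup19, both overlapping. Mup2, Mup4 and Mup6 had higher means in the knockouts, with log2 ratios of 0.48, 0.68 and 0.54, and were not called. These genes are near-identical copies and some of their listed transcripts overlap, so how reads were shared among members is uncertain and the sum is firmer than any single value.

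The Serpina family of secreted protease inhibitors moved in both directions. Of 19 members, 9 fell and 5 rose, while limma voom called 1 lower and 3 higher. The summed level was 4264 and 4432 FPKM in controls and 1693 and 2509 FPKM in knockouts. Serpina3k, the most abundant of them, fell from 1557 and 2028 FPKM to 282 and 702 FPKM, Serpina1a from 321 and 529 FPKM to 187 and 254 FPKM and Serpina1c from 482 and 359 FPKM to 128 and 247 FPKM. Serpina12, which encodes vaspin, fell from 2.27 and 3.37 FPKM to 0.599 and 0.23 FPKM, and the pseudogene Serpina4-ps1 from 68.1 and 114 FPKM to 6.48 and 19.2 FPKM. The carriers of hormones in blood went the other way. Serpina7, thyroxine-binding globulin, rose from 3.68 and 4.18 FPKM to 20.2 and 21.7 FPKM, 5.39-fold higher by the authors' deposited table (adjusted p = 9e-22). Serpina6, corticosteroid-binding globulin, rose from 108 and 52.1 FPKM to 273 and 180.0 FPKM, with an adjusted p of 0.0035 in the authors' deposited table and 0.11 by limma voom. The Serpina1 and Serpina3 genes are also close copies whose reads may be shared. Outside the family, Serpine2, protease nexin 1, fell from 1.57 and 1.89 FPKM to 0.307 and 0.247 FPKM (limma voom adjusted p 0.0044).

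Families of conjugating enzymes and transporters that lost members included the glucuronosyltransferases. Of 14 Ugt genes above the floor, 5 fell and none rose, with limma voom calling 4 lower and 0 higher, and the sum went from 832 and 988 FPKM to 518 and 592 FPKM. Ugt2b1 fell from 212 and 222 FPKM to 39.5 and 69.97 FPKM (limma voom log2 change -2.03, standard error 0.21, adjusted p 0.0044), Ugt2b5 from 133 and 197 FPKM to 50.9 and 87.7 FPKM, and Ugt2b38 from 1.85 and 3.58 FPKM to 0.283 and 0.179 FPKM. Ugt2b35 and Ugt2a3 also fell, with log2 ratios of -1.09 and -0.88. Of 12 carboxylesterase genes, 3 fell: Ces3b from 96.8 and 110.3 FPKM to 17.8 and 49.6 FPKM, Ces1e from 28.2 and 39.7 FPKM to 18.2 and 16.4 FPKM and Ces3a from 308 and 385 FPKM to 195 and 212 FPKM. Slco1a1, an organic anion importer, fell from 188 and 149.9 FPKM to 21.6 and 57.3 FPKM, and no other of the 5 Slco genes above the floor was called. Among 18 glutathione transferases, Gstp1 had 167 and 483 FPKM in controls and 82.6 and 122.9 in knockouts and Gstm6 15.01 and 29.02 FPKM and 7.01 and 6.94 FPKM, and both fell.

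The organic anion and cation transporters of the Slc22 family separated by member. Of 11 above the floor, 5 rose and 2 fell. Slc22a28 fell from 4.69 and 6.04 FPKM to 0.913 and 1.49 FPKM and Slc22a30 from 38.96 and 51.4 FPKM to 20.8 and 21.9 FPKM. Slc22a29 rose as well, from 7 and 1 reads in controls, or 0.109 and 0.0731 FPKM, and stood at 3.83 and 3.19 FPKM in knockouts. Slc22a27 and Slc22a26 rose to 3.74 and 1.54 FPKM and 2.82 and 1.34 FPKM from 0.144 and 0 FPKM and 0.359 and 0.161 FPKM. Slc22a7, a prostaglandin and anion transporter, rose from 7.25 and 8.53 FPKM to 14.4 and 18.4 FPKM, and the carnitine transporter gene Slc22a5 from 2.38 and 2.704 FPKM to 4.13 and 5.697 FPKM. All 5 rises and both falls were without overlap between the groups. Slc22a26, Slc22a27 and Slc22a29 were taken in only through the knockout mean.

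Female-biased liver genes were mostly raised. Of 50 listed, 45 were above the floor, 27 rose and 1 fell, against a background of 2.84% rising. That background is too low for part of the list. Genes such as Cyp2b13, Cyp2a4, Hao2 and Sult1e1 had control means under 1 FPKM and were taken in only through the knockout mean. Over all genes, 170 of the 265 that rose were at the floor in both means. Limma voom called 5 of the 45 higher and 0 lower, and the median log2 ratio was 1.77. Cyp2b13, a cytochrome P450 (chromosome 7, 26846513 to 26881215 on mm9), went from 12 and 1 reads in controls to 5919 and 2954 reads in knockouts, which is 0.219 and 0.0861 FPKM and 99.6 and 53.4 FPKM. The control females had 61.8 and 46.9 FPKM. Cyp2b9 rose from 6.52 and 1.29 FPKM to 121 and 91.9 FPKM, beside 126 and 95.7 FPKM in control females. Both were called by the authors' deposited table, with adjusted p-values of 4.5e-66 and 2.1e-15, and by limma voom, with 0.0067 and 0.0055.

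Other female genes rose but stayed far under the level of control females. Cyp2a4, a testosterone hydroxylase, rose from 1.04 and 0.0942 FPKM to 21.5 and 9.31 FPKM, beside 171 and 149 FPKM in control females. Hao2, a hydroxyacid oxidase, rose from 0.168 and 0.158 FPKM to 4.19 and 1.48 FPKM, beside 29.9 and 20.3 FPKM. In both of these, and in Slc22a26, the deeper knockout library was the higher. The male knockouts and female controls were not tested against each other here.

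Among 32 Cyp2 genes above the floor, 9 rose and 6 fell, and their summed level hardly moved, from 3903 and 4068 FPKM to 3895 and 4212 FPKM. Cyp2a5 rose from 125 and 77.8 FPKM to 312 and 340.0 FPKM, Cyp2b10, a classical target of the receptor CAR, from 4.896 and 1.63 FPKM to 12.05 and 14.2 FPKM, and Cyp2c37 from 37.1 and 14.5 FPKM to 75.8 and 56.9 FPKM. Cyp2f2 fell from 260.2 and 345 FPKM to 85.9 and 167 FPKM and Cyp2c70, which makes muricholic acids, from 222 and 187 FPKM to 113 and 113 FPKM. Cyp2c69 was the female gene of the list that fell, with 12.5 and 3.28 FPKM in controls and 1.98 and 1.76 in knockouts, and its near copy Cyp2c40 had 14.6 and 1.26 FPKM and 2.49 and 1.43 without a call. In both, the deeper control library stood apart from the other 3.

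The cytosolic sulfotransferases, which conjugate steroids and bile acids, rose widely. Of 14 Sult genes above the floor, 9 rose and 1, Sult5a1, fell, while limma voom called 2 higher and 0 lower. Sult2a7, Sult1e1, Sult2a1 and Sult2a2 were among those taken in only through the knockout mean. The sum went from 122.9 and 78.4 FPKM to 215 and 212 FPKM. Sult2a7 rose from 0.956 and 0.36 FPKM to 47.8 and 41.7 FPKM, 52.9-fold higher by the authors' deposited table (adjusted p = 1.1e-59, and 0.0021 by limma voom). Sult1e1, the estrogen sulfotransferase, rose from 0.163 and 0 FPKM to 10.1 and 12.9 FPKM, that is, from 6 and 0 reads to 403 and 480 reads. Sult2a2 and Sult2a1 rose to 14.3 and 10.1 FPKM and 7.67 and 10.3 FPKM from 0.0463 and 0.218 FPKM and 0 and 0.316 FPKM. Sult2a6 had no reads in either control library and was at least 21.6-fold higher in the knockout mean, against a floor of 3 reads over the control group. Sult3a1 was uneven, with 1.9004 and 8.41 FPKM in knockouts and 0.0626 and 1.03 FPKM in controls. The Sult2a genes are close copies, so the split between them is uncertain.

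**Figure D3:**
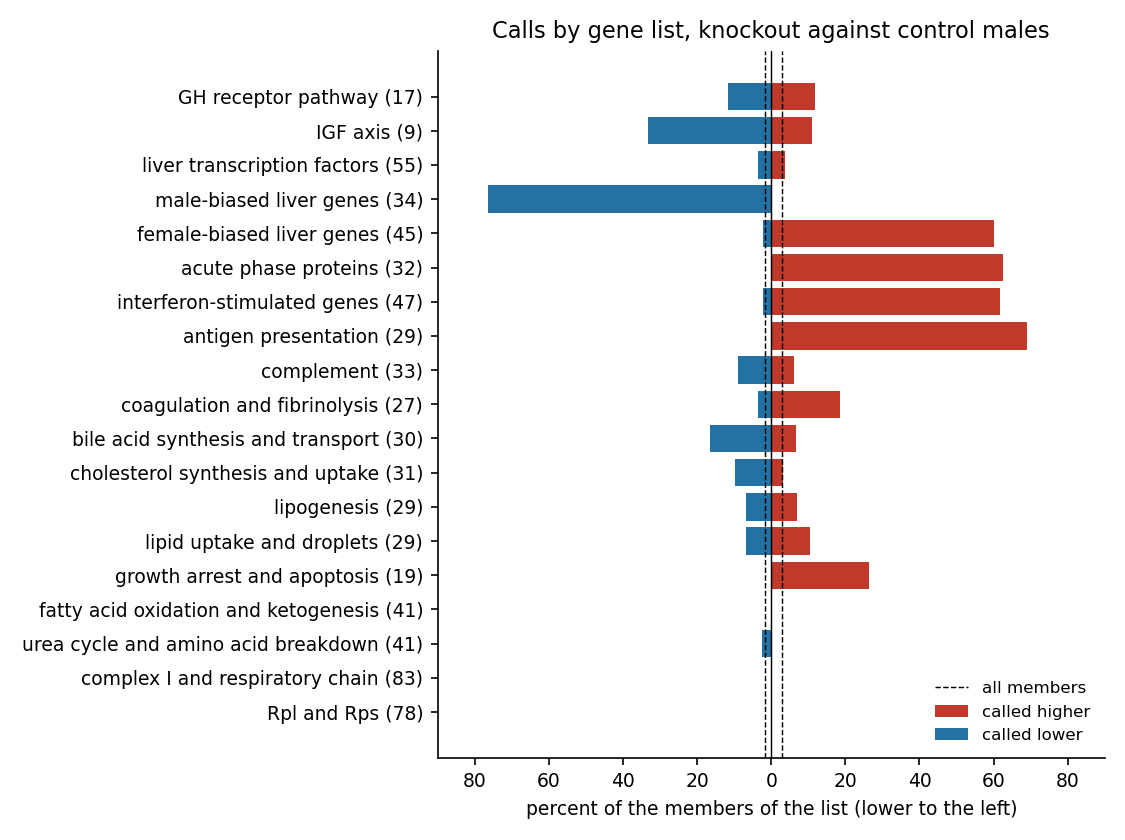
Percent of the genes of each list, among those above the floor (number in brackets), called higher (right) or lower (left) in knockout males in the authors' deposited table, with dashed lines at 2.84% and 1.69% for all 9317 genes. Male-biased genes extend far to the left and female-biased, acute phase, interferon and antigen presentation genes far to the right, while the respiratory chain, ribosomal protein and fatty acid oxidation lists have no calls.

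Many genes of the acute phase response, whose proteins hepatocytes secrete during inflammation, rose, and both knockout pools took part. Of 32 above the floor, 20 rose and none fell, limma voom called 15 higher and 0 lower, and the median log2 ratio was 1.38. The summed level was 4487 and 5159.6 FPKM in controls and 12581 and 18103 FPKM in knockouts. Serum amyloid A genes led the rise. Saa2 (chromosome 7, 54007202 to 54009684 on mm9) stood at 32.1 and 17.2 FPKM in controls and 1769.7 and 3357 FPKM in knockouts and Saa1 at 64.9 and 38.6 FPKM and 1811 and 3084 FPKM. The authors' deposited table gives 99.6-fold higher and 45.99-fold higher, with adjusted p-values of 8.8e-50 and 1.4e-44. Saa3, made mostly outside hepatocytes, rose from 1.68 and 1.82 FPKM to 9.63 and 20.2 FPKM.

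Further acute phase genes rose to high levels. Lcn2, a siderophore-binding lipocalin, rose from 3.42 and 3.98 FPKM to 219.7 and 201 FPKM and Orm2, an acid glycoprotein, from 4.43 and 1.25 FPKM to 237 and 297 FPKM, with limma voom adjusted p-values of 0.0055 and 0.0031. Haptoglobin, Hp, rose from 451 and 386 FPKM to 1546 and 1798 FPKM and hemopexin, Hpx, from 659 and 656 FPKM to 1929 and 1829 FPKM. Serpina3n rose from 54.8 and 65.8 FPKM to 172 and 245 FPKM, Lrg1 from 59.99 and 75.2 FPKM to 190.3 and 256 FPKM and the lipopolysaccharide-binding protein gene Lbp from 11.4 and 11.1 FPKM to 19.9 and 30.3 FPKM. Itih4 rose from 230.2 and 236 FPKM to 488 and 698 FPKM, and the metalloreductase Steap4 from 14.5 and 14.2 FPKM to 56.7 and 59.2 FPKM. Il1rn, the antagonist of the interleukin 1 receptor, rose from 0.229 and 0.12 FPKM to 2.205 and 2.03 FPKM. In all of these the groups were apart.

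Not every acute phase gene was called or rose evenly. The metallothioneins Mt1 and Mt2 were called higher, with 172 and 302 FPKM and 125 and 251 FPKM in knockouts, but the control pools differed widely, at 97.5 and 15.2 FPKM and 60.9 and 6.97 FPKM. Fibrinogen genes Fga and Fgb had 334 and 540.0 FPKM and 671 and 944 FPKM in controls and 575 and 841 FPKM and 1003 and 1482 FPKM in knockouts. For each, both knockout libraries lay above both controls. Their unadjusted p-values in the authors' deposited table were 0.004 and 0.0069, but neither was called (adjusted p 0.14 and 0.21). C-reactive protein, Crp, had 83.4 and 74.3 FPKM against 53.97 and 65.4 FPKM, serum amyloid P, Apcs, 78.8 and 96.7 FPKM against 61.3 and 113 FPKM and hepcidin, Hamp, 364 and 504 FPKM against 299.8 and 483 FPKM. None of the last 3 was called. In 28 of the 32 genes the shallower knockout library was the higher of the 2.

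Complement and clotting genes were called in both directions, with most log2 ratios above 0. Of 33 complement genes above the floor, 2 rose and 3 fell, and in 21 the log2 ratio was above 0. Both knockout libraries lay above both controls for 16, beside 19.4% of all genes, and below them for 6, beside 20.6%. The unadjusted p in the authors' deposited table was under 0.05 for 16, beside 11.2% of all genes. The terminal components C6 and C8b, both higher in male liver, fell from 40.3 and 71.4 FPKM to 10.03 and 15.8 FPKM and from 60.001 and 75.01 FPKM to 21.3 and 36.1 FPKM, and C4a, the sex-limited protein, from 13.8 and 7.41 FPKM to 3.63 and 6.12 FPKM. Clusterin, Clu, an inhibitor of the terminal complex, rose from 193 and 229.7 FPKM to 384 and 378 FPKM. C1qa, made by macrophages, rose from 4.91 and 4.03 FPKM to 8.196 and 8.55 FPKM. In 21 of 27 clotting genes above the floor the log2 ratio was above 0. Both knockout libraries lay above both controls for 10 and below them for 2, and 9 had an unadjusted p under 0.05 in that table. Of the 27, 5 rose and F11, factor XI, fell from 24.6 and 27.2 FPKM to 8.97 and 15.99 FPKM. The 5 were inhibitors and modulators, namely Serpina10, Pros1, Hrg, Cpb2 and Hgfac, with log2 ratios of 1.03, 0.81, 0.72, 0.69 and 0.84. Serpina10, which restrains factor Xa, rose from 44.4 and 47.1 FPKM to 92.7 and 94.4 FPKM. Of 32 hepatokines and hormone carriers above the floor, 3 rose and 3 fell. Besides Igf1, the falls were the inhibin subunits Inhbe, from 9.83 and 11.3 FPKM to 5.71 and 5.75 FPKM, and Inhbc, from 14.9 and 15.7 FPKM to 8.804 and 9.21 FPKM. Besides both Serpina carriers, the stress cytokine Gdf15 rose from 0.19 and 0.596 FPKM to 2.79 and 0.875 FPKM.

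Many genes induced by interferons rose, with larger ratios in the deeper knockout library. Of 62 listed, 47 were above the floor, 29 rose and 1, Irf5, fell. Some that rose, such as Usp18 and Ifit3, were taken in only through the knockout mean. Both knockout libraries lay above both controls for 43 of the 47, beside 19.4% of all 9317 genes. Limma voom called none higher and 1 lower, and its count over this list was 6 higher only when the shallower knockout library was left out. The unadjusted p in the authors' deposited table was under 0.05 for 40 of the 47, beside 11.2% of all 9317 genes. Their summed level was 187 and 181 FPKM in controls and 562 and 283 FPKM in knockouts. The median log2 ratio to the control mean was 1.53 in the deeper and 0.82 in the shallower knockout library, and 39 of the 47 genes were higher in the deeper one. This difference lies between libraries of the same genotype. Pool and library cannot be told apart in it, since each pool has 1 library, and its cause was not tested.

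GTPases that defend against intracellular microbes were among the interferon genes that rose. Of 18 Gbp and immunity-related GTPase genes above the floor, 14 rose and none fell, with limma voom calling 1 higher and 0 lower, and the sum was 98.6 and 97.1 FPKM in controls and 415 and 158 FPKM in knockouts. Gbp2 (chromosome 3, 142283626 to 142300972 on mm9) stood at 0.503 and 0.263 FPKM in controls and 15.9 and 2.06 FPKM in knockouts, Gbp3 at 0.381 and 0.163 FPKM and 10.8 and 1.93 FPKM and Gbp10 at 1.002 and 0.687 FPKM and 11.02 and 1.498 FPKM. Control means of these Gbp genes were under 1 FPKM, so only the knockout mean took them in. Igtp rose from 4.39 and 5.59 FPKM to 43.2 and 15.8 FPKM, and Irgm2 from 3.21 and 5.88 FPKM to 11.8 and 7.12 FPKM. Gm4841 was called by both tests, at 1.09 and 1.48 FPKM and 59.8 and 25.6 FPKM, with an adjusted p of 1.4e-29 in the authors' deposited table and 0.0067 by limma voom. Tgtp1 and Tgtp2, which overlap each other in the listing, had 2 and 0 and 6 and 0 reads in controls and 908 and 134 and 983 and 141 in knockouts.

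The promoters of Gbp2 and Igtp are shown because they hold GAAA, any 2 bases and GAAA again, the core of the element bound by interferon regulatory factors, in capitals on either strand. This motif was looked for after the values were seen, and it occurs in 3.44% of the 32851 promoters. Gbp2 lies at chr3:142620413-142620712 and Igtp at chr11:58199306-58199605 of GRCm38.p6, both on the plus strand, from RefSeq.
Gbp2 promoter: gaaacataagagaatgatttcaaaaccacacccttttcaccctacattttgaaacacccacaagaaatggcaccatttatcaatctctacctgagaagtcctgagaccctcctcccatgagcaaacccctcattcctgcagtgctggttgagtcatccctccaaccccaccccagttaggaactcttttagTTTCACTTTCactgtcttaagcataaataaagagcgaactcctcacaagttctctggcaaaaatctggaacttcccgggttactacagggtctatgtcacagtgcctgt
Igtp promoter: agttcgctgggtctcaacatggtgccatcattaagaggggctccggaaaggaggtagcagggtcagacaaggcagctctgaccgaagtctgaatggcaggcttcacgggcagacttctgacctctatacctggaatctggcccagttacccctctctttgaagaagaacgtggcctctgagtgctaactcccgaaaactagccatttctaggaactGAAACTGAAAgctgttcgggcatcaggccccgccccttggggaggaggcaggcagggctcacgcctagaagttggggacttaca

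Other interferon genes varied. Usp18, a brake on interferon signalling, rose from 0.349 and 0.274 FPKM to 2.82 and 2.105 FPKM, Ifit1 from 0.637 and 0.429 FPKM to 2.49 and 1.13 FPKM and Ifit3 from 0.687 and 0.323 FPKM to 4.202 and 1.34 FPKM. Isg15, a ubiquitin-like modifier, had 1.54 and 1.92 FPKM against 5.13 and 2.82 FPKM and was not called, and Stat2 had 5.69 and 5.51 FPKM against 6.03 and 6.06 FPKM. Irf5 fell from 2.55 and 4.19 FPKM to 1.45 and 1.52 FPKM (limma voom adjusted p 0.036). The chemokine gene Cxcl9, which interferon gamma induces, had 0.472 and 0.445 FPKM and 5.51 and 0.618 FPKM, nearly all of the rise being in the deeper library. Cxcl1, a neutrophil chemokine gene, was high in the shallower one, with 3.33 and 1.702 FPKM and 7.42 and 30.2 FPKM. Among Apol genes, Apol9a rose from 2.81 and 1.95 FPKM to 14.9 and 10.7 FPKM and Apol10b from 0.0345 and 0 FPKM to 5.28 and 1.76 FPKM. Ly6e rose evenly, from 22.2 and 20.9 FPKM to 81.8 and 76.9 FPKM.

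**Figure D4:**
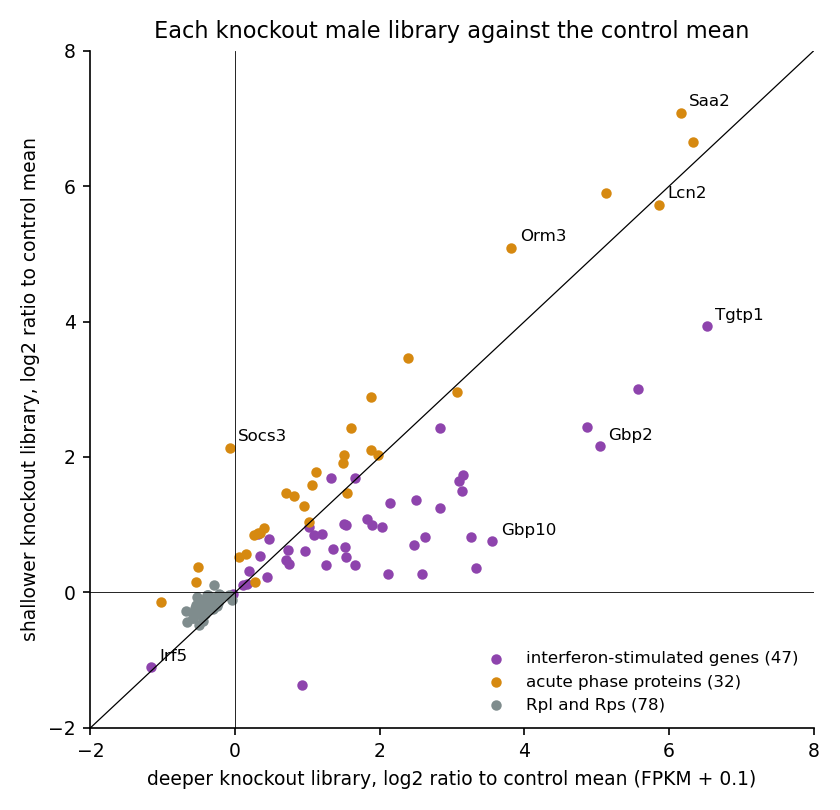
Log2 ratio to the control mean (FPKM + 0.1) in the deeper knockout library (x axis) and in the shallower one (y axis) for interferon-stimulated, acute phase and ribosomal protein genes above the floor, with the line of equal ratios. Interferon genes lie mostly below the line and acute phase genes mostly above it, and ribosomal protein genes cluster just under 0 on both axes.

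Genes of antigen presentation followed a similar division. Of 29 above the floor, 20 rose and none fell, limma voom called 4 higher and 0 lower, and 28 of the 29 were higher in the deeper than in the shallower knockout library. The sum went from 1154 and 1083 FPKM to 1869 and 1546 FPKM. Of the class I pathway, H2-Q1 rose from 0.542 and 0.718 FPKM to 5.63 and 4.03 FPKM, H2-Q7 from 4.65 and 2.73 FPKM to 16.03 and 12.6 FPKM and the peptide transporter gene Tap1 from 1.99 and 2.41 FPKM to 7.24 and 5.295 FPKM. The immunoproteasome subunits rose, Psmb8 from 5.97 and 4.09 FPKM to 21.6 and 12.7 FPKM, Psmb9 from 5.92 and 4.01 FPKM to 17.4 and 12.1 FPKM and Psmb10 from 5.24 and 3.56 FPKM to 13.2 and 8.805 FPKM, while the other 39 proteasome genes above the floor were not called. Class II genes, which professional antigen-presenting cells express, were more uneven. Cd74, the invariant chain, had 14.1 and 10.2 FPKM in controls and 173 and 56.6 FPKM in knockouts, H2-Ab1 4.43 and 3.52 FPKM and 27.9 and 6.65 FPKM and H2-DMa 0.621 and 0.487 FPKM and 4.797 and 1.12 FPKM. The microRNA gene Mir5107, which lies within the span of Cd74 in the listing, went from 17.2 and 1.84 FPKM to 239 and 69.7 FPKM, and its reads cannot be told apart from those of Cd74. H2-Q7 overlaps H2-Q9 and is a close copy of other H2-Q genes.

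Of 18 Kupffer cell and macrophage markers above the floor, 3 rose and none fell, beside 2.84% and 1.69% of all genes, with limma voom calling 2 higher and 0 lower. Both knockout libraries lay above both controls for 16 of the 18, beside 19.4% of all 9317 genes. Their sum was 68.8 and 69.6 FPKM in controls and 140.4 and 131 FPKM in knockouts. Mpeg1 (chromosome 19, 12535268 to 12539775 on mm9), a pore-forming macrophage protein that interferon also induces, rose from 6.03 and 6.44 FPKM to 39.97 and 35.97 FPKM and Lyz2, lysozyme, from 7.17 and 6.72 FPKM to 12.4 and 14.2 FPKM. Over the 22 matched markers other than Mpeg1 the sum was 63.4 and 64.3 FPKM in controls and 102.3 and 95.9 FPKM in knockouts. The defining Kupffer markers Clec4f and Timd4 had 8.405 and 8.68 FPKM and 1.04 and 1.19 FPKM in controls and 13.005 and 13.5 FPKM and 1.76 and 1.26 FPKM in knockouts, and Adgre1, listed as Emr1, 1.63 and 1.64 FPKM and 2.71 and 2.005 FPKM. None of these 3 was called. The part of macrophage number in the rises of interferon and antigen presentation genes was not tested. None of 17 endothelial, 18 stellate and fibroblast, 1 lymphocyte or neutrophil and 8 red blood cell and adipose markers above the floor was called.

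Osteopontin and an elastase stood out among markers of bile ducts and pancreas. Spp1, osteopontin, rose from 2.13 and 5.94 FPKM to 37.1 and 28.2 FPKM (limma voom adjusted p 0.0044), while the sum of the other 14 bile duct markers was 14.3 and 22.6 FPKM in controls and 14.7 and 14.6 FPKM in knockouts. Cela1, an elastase gene, fell from 9.15 and 11.2 FPKM to 2.45 and 4.87 FPKM, while the other 16 pancreas markers summed to 0.226 and 0 FPKM in controls and 0.924 and 3.02 FPKM in knockouts.

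**Figure D5:**
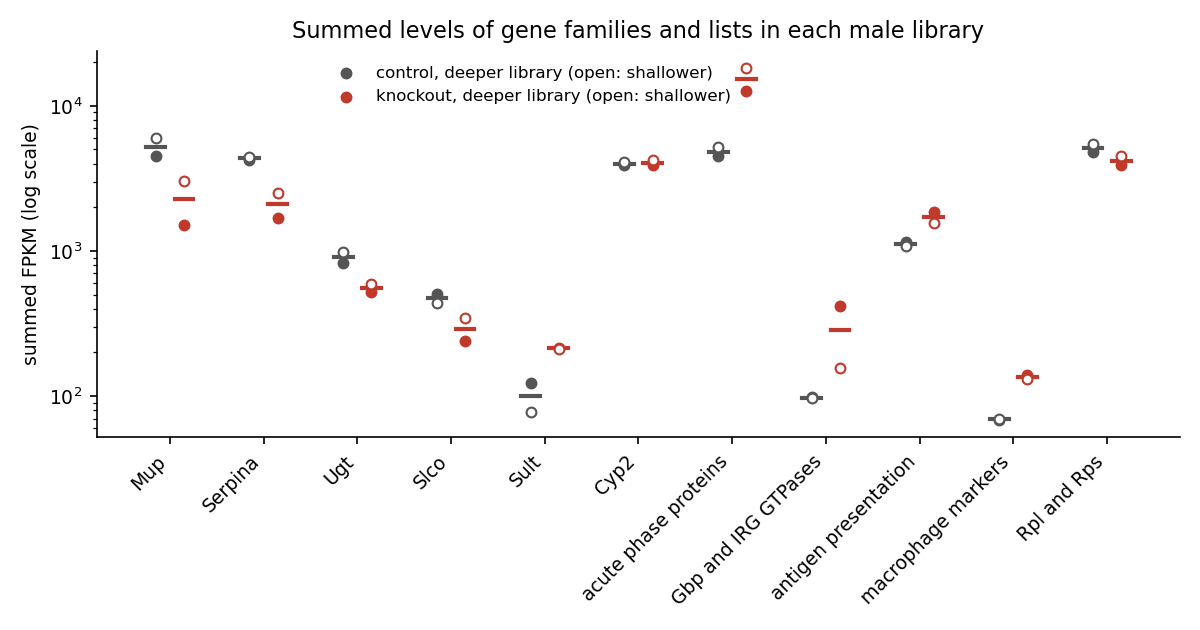
Summed FPKM, on a log scale, of gene families and lists in each male library, over the members above the floor. Filled points are the deeper and open points the shallower library and short lines the means, with Mup sums of 4486 and 5970 in controls and 1510 and 3027 in knockouts and a wide gap between the knockout libraries for the Gbp and immunity-related GTPases.

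None of 41 genes of fatty acid oxidation and ketogenesis above the floor was called in the authors' table, with 7 at an unadjusted p under 0.05 and none by limma voom. Cd36, a fatty acid importer that is higher in female liver, rose from 2.45 and 1.52 FPKM to 21.3 and 19.4 FPKM, 9.74-fold higher by the authors' deposited table (adjusted p = 5e-26) and with a limma voom adjusted p of 0.0044. Vldlr, a lipoprotein receptor, rose from 0.392 and 0.603 FPKM to 1.57 and 1.31 FPKM, and Hsd17b13, a protein of lipid droplets, from 20.3 and 27.9 FPKM to 54.7 and 48.3 FPKM. The fatty acid binding protein genes Fabp5 and Fabp2 fell from 12.5 and 17.5 FPKM to 2.12 and 4.73 FPKM and from 24.7 and 18.7 FPKM to 9.71 and 9.38 FPKM.

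Among 29 lipogenic genes above the floor, 2 rose and 2 fell, and limma voom called none. In 18 the log2 ratio was under 0, 13 had both knockout libraries below both controls, beside 20.6% of all genes, and 9 had an unadjusted p under 0.05 in the authors' deposited table, beside 11.2%. Mogat1, a monoacylglycerol acyltransferase, rose from 0.0569 and 0.268 FPKM to 1.36 and 0.815 FPKM and the desaturase gene Scd2 from 0.447 and 0.77 FPKM to 1.72 and 1.08 FPKM. Mogat1 and Scd2 had control means under 1 FPKM and were taken in only through the knockout mean, which favours rises. Besides Elovl3, Elovl2 fell from 70.6 and 63.003 FPKM to 34.7 and 43.2 FPKM. The main enzymes of fat synthesis were not called: Fasn had 26.5 and 14.9 FPKM against 29.96 and 17.1 FPKM and Scd1 277 and 132 FPKM against 199 and 186 FPKM, and Srebf1, the factor that drives them, had 35.1 and 23.4 FPKM against 29.7 and 27.6 FPKM. In these 3 genes the groups overlapped.

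Genes of sterol and bile acid metabolism were called in both directions, with most log2 ratios under 0. Of 31 cholesterol genes above the floor, 3 fell and 1 rose, and limma voom called 1 lower and 1 higher, beside 1.69% falling and 2.84% rising over all genes. In 23 of the 31 the log2 ratio was under 0. Both knockout libraries lay below both controls for 11, beside 20.6% of all genes, and above them for 4, beside 19.4%. The unadjusted p in the authors' deposited table was under 0.05 for 9, beside 11.2% of all genes. The synthesis enzymes Tm7sf2, Idi1 and Nsdhl fell from 24.7 and 28.4 FPKM, 37.6 and 50.6 FPKM and 12.4 and 14.998 FPKM to 12.5 and 15.3 FPKM, 26.6 and 23.9 FPKM and 8.11 and 7.85 FPKM. Scarb1, the receptor for high-density lipoprotein, rose from 18.05 and 21.9 FPKM to 30.3 and 34.1 FPKM. Of 30 bile acid genes, 5 fell and 2 rose, and limma voom called 4 lower and 1 higher. The log2 ratio was under 0 for 19 of the 30. Both knockout libraries lay below both controls for 9 and above them for 5, and 11 had an unadjusted p under 0.05 in that table. Scp2, a sterol carrier that also cleaves bile acid side chains in peroxisomes, fell from 563 and 669 FPKM to 232 and 313 FPKM, with an adjusted p of 2.7e-05 in the authors' deposited table and 0.013 by limma voom. The sulfotransferase gene Sult2a8, listed as 2810007J24Rik, fell from 159 and 176 FPKM to 65.5 and 81.7 FPKM. Cyp39a1, an oxysterol hydroxylase, rose from 1.19 and 1.14 FPKM to 2.84 and 4.13 FPKM and the efflux pump gene Abcb1a from 0.641 and 0.324 FPKM to 1.86 and 1.37 FPKM. Cyp7a1, the rate-limiting enzyme of bile acid synthesis, had 43.6 and 19.9 FPKM in controls and 72.04 and 67.04 in knockouts, without overlap and with an adjusted p of 0.064 in the authors' deposited table. The bile salt importer gene Slc10a1 had 129 and 118 FPKM against 49.8 and 86.1 FPKM, with an adjusted p of 0.054 in the same table. The bile salt export pump gene Abcb11 had 41.2 and 70.004 FPKM against 36.1 and 51.4 FPKM, with overlap.

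Sulfur and methyl group metabolism held a pair of opposite changes. Csad, which makes the taurine precursor hypotaurine, fell from 10.8 and 39.6 FPKM to 2.44 and 4.26 FPKM, with 1 control library far above the other. Nnmt, which methylates nicotinamide, rose from 7.73 and 2.88 FPKM to 38.3 and 69.1 FPKM. Limma voom gave adjusted p-values of 0.17 and 0.11, and the other 29 genes of that list above the floor were not called. In iron metabolism, the iron exporter gene Slc40a1 fell from 28.6 and 34.2 FPKM to 17.7 and 19.2 FPKM, and the transferrin gene Trf had 2799 and 2514 FPKM against 1917 and 2107 FPKM without a call.

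Lists of central metabolism had almost no calls. None of the genes above the floor was called in the lists of glycolysis and the pentose phosphate path (28 genes), the citrate cycle (22), apolipoproteins and lipoprotein assembly (28), targets of NRF2 and oxidative stress (27), endoplasmic reticulum stress (24) and the circadian clock (20). In those 6 lists the unadjusted p in the authors' deposited table was under 0.05 for 3, 2, 5, 5, 3 and 4 genes, beside 11.2% of all genes. Limma voom called none. Of 27 genes of gluconeogenesis and glycogen only Igfbp1, listed there as an insulin target, was called. Pck1, the key enzyme of gluconeogenesis, had 321 and 258 FPKM in controls and 214 and 305 FPKM in knockouts and G6pc 62.2 and 90.4 FPKM and 72.9 and 33.9 FPKM. Of 41 genes of the urea cycle and amino acid breakdown, 1 fell: Etnppl, a phospholyase of phosphoethanolamine, went from 17.6 and 20.9 FPKM to 2.299 and 6.096 FPKM. Cps1, the first enzyme of the urea cycle, had 386 and 402 FPKM against 269 and 337 FPKM. The 83 genes of the respiratory chain and the 75 of the mitochondrial ribosome had no call, and 0 of either at an unadjusted p under 0.05.

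No cytosolic ribosomal protein gene was called by the authors' table or by limma voom. All 78 above the floor had a log2 ratio under 0, from -0.55 to -0.06 with a median of -0.30, beside a median of -0.04 over all 9317 genes. Both knockout libraries lay below both controls for 63 of them, beside 20.6% of all genes, and 4 had an unadjusted p under 0.05 in the authors' deposited table. Rpl13 had 63.01 and 75.3 FPKM in controls and 48.8 and 49.5 FPKM in knockouts, Rplp0 67.7 and 82.8 FPKM and 55.4 and 62.9 FPKM, and Rps6 56.5 and 69.04 FPKM and 47.8 and 54.4 FPKM. The median ratio to the control mean was -0.41 in the deeper and -0.20 in the shallower knockout library on the log2 scale. The pool with the larger interferon values thus also had the lower ribosomal protein values. Neither median was corrected for the difference in scale between the knockout libraries, which goes in the same direction. The male-biased genes were lower in the same deeper library too, in which 6 of 34 were the higher. Among female-biased genes 32 of 45 were higher in the deeper library, with medians of 1.63 and 1.49.

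Some genes of growth arrest and stress rose. Of 19 above the floor, 5 rose and none fell, limma voom calling 1 higher and 0 lower. Cdkn1a, the cell cycle inhibitor p21, rose from 0.186 and 0 FPKM to 3.61 and 1.29 FPKM, and the deeper knockout library was the higher. Ddit4, an inhibitor of mTORC1, rose from 0.875 and 0.767 FPKM to 2.87 and 4.69 FPKM, Btg2 from 0.523 and 0.733 FPKM to 2.18 and 1.51 FPKM and Trp53inp1 from 7.03 and 9.16 FPKM to 19.7 and 12.4 FPKM. Control means of Cdkn1a, Ddit4 and Btg2 were under 1 FPKM, so only the knockout mean took them in, which favours rises. Ccng1, a p53 target, rose evenly from 4.68 and 4.72 FPKM to 8.64 and 9.77 FPKM (limma voom adjusted p 0.0067). Of 10 cell cycle genes above the floor, only Ccnd1, cyclin D1, was called, rising from 3.66 and 3.32 FPKM to 9.63 and 5.64 FPKM. Among 12 fetal and tumour-associated genes, H19 rose through the deeper knockout library, with 1 and 1 reads in controls and 225 and 7 in knockouts. Spink3, which had 0 reads in both controls, had 72 and 46 reads in knockouts and was at least 22.6-fold higher in the knockout mean, against a floor of 3 reads over the control group. H19 and Spink3 were likewise taken in only through the knockout mean.

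Genes of both liver zones were called in both directions. Of 20 periportal genes, 4 fell and 1 rose, and of 22 perivenous genes above the floor, 3 rose and 1 fell. Limma voom called 3 lower and 1 higher in the first list and none in the other. The periportal calls included Igf1, Etnppl and Cyp2f2, which fell, and the perivenous calls Cyp2a5 and Cyp2c37, which rose. Rhbg, an ammonium transporter of perivenous cells, rose from 1.597 and 2.11 FPKM to 6.92 and 3.72 FPKM. Among mitochondrial carriers Slc25a30 fell from 5.81 and 7.57 FPKM to 2.57 and 2.52 FPKM and Slc25a25 from 20.2 and 28.04 FPKM to 12.1 and 15.2 FPKM. The amino acid transporter gene Slc3a1 rose from 15.3 and 18.2 FPKM to 29.2 and 47.6 FPKM.

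Outside the 84 lists and families, 179 genes were called, 114 higher and 65 lower, of 7466. The genes named in this and the next paragraph were chosen after their values were seen. Steady rises included Atp11a, a phospholipid flippase, from 0.73 and 1.04 FPKM to 7.37 and 5.98 FPKM, Prg4, lubricin, from 5.702 and 3.59 FPKM to 28.3 and 30.7 FPKM, and Rcan2, an inhibitor of calcineurin, from 0.445 and 0.335 FPKM to 5.27 and 5.65 FPKM. Gas6, the ligand of the TAM receptors, rose from 3.98 and 3.36 FPKM to 15.8 and 14.2 FPKM, and Ddah1, which degrades asymmetric dimethylarginine, from 4.69 and 4.74 FPKM to 16.1 and 17.7 FPKM. Fgl1, a secreted liver protein, rose from 71.4 and 41.4 FPKM to 199.5 and 321 FPKM and the dicarboxylate transporter gene Slc13a3 from 2.01 and 1.302 FPKM to 10.9 and 8.198 FPKM. Limma voom gave these 7 genes adjusted p-values from 0.002 (Ddah1) to 0.011 (Fgl1). Ubd, a ubiquitin-like protein of inflammation, was uneven: it had 0 reads in controls and 359 and 15 reads in knockouts, at least 69.7-fold higher in the mean against a floor of 3 reads over the control group. Chil1, a chitinase-like protein, went from 0.0406 and 0 FPKM to 1.81 and 3.97 FPKM, and Igdcc4 from 0.011 and 0 FPKM to 1.85 and 2.44 FPKM.

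Falls outside the lists included Lifr, the receptor of leukemia inhibitory factor, from 33.8 and 44.6 FPKM to 15.8 and 19.9 FPKM, and Aox3, an aldehyde oxidase of liver, from 118 and 151 FPKM to 60.1 and 77.6 FPKM. Urad, of uric acid breakdown, fell from 19.03 and 14.1 FPKM to 5.23 and 7.92 FPKM and Sucnr1, the succinate receptor, from 3.17 and 3.91 FPKM to 1.31 and 0.798 FPKM. Mcm10, a replication factor, fell from 10.8 and 11.9 FPKM to 1.92 and 4.82 FPKM and Pde4b, a cyclic AMP phosphodiesterase, from 1.34 and 2.09 FPKM to 0.727 and 0.775 FPKM. Prok1 fell from 2.82 and 2.34 FPKM to 0.457 and 0.164 FPKM and Cadm4 from 0.939 and 1.199 FPKM to 0.0586 and 0.22 FPKM. Glo1, the glyoxalase that clears methylglyoxal, fell from 78.3 and 140.2 FPKM to 45.9 and 61.1 FPKM and Hacl1, of peroxisomal alpha-oxidation, from 43.8 and 47.2 FPKM to 26.2 and 20.95 FPKM.

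The most abundant transcripts of control males are a description of what the liver makes. Alb, albumin, led with 15156 and 9998 FPKM in controls and 10267 and 10456 FPKM in knockouts, with overlap. Of the 15 genes highest in control males, 2 were called, Mup3 and Serpina3k, and both fell. Fabp1 had 1624 and 1214 FPKM against 881 and 921 FPKM without a call (adjusted p 0.25 in the authors' deposited table) and Apoa1 1943 and 2017 FPKM against 1534 and 1406 FPKM. Apoa2, Apoe and Cyp2e1 overlapped between the groups, with log2 ratios of -0.05, 0.04 and -0.08. Of the 2180 genes at 10 FPKM or more in either mean, 96 rose and 85 fell.

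The genotype comparison in females shares no libraries with that in males. Of the 422 genes called in males, 184 were also called in females by the authors' deposited table, 6 of them in the opposite direction, and 238 were not. A call in 1 sex only does not show a difference between the sexes. The difference itself, tested with limma voom as the interaction of genotype and sex, was called for 0 of 12980 genes, with 450 of the 9317 genes at an unadjusted p under 0.05 and a lowest adjusted p of 0.218, and limma on log2(FPKM + 0.1) called 9 of 18004 genes (0.05%). Among genes called in males, those with the lowest interaction p included Igfbp3, with 3.39 and 3.13 FPKM in control and 4.76 and 4.16 FPKM in knockout females, Serpine2, with 0.197 and 0.194 FPKM and 0.288 and 0.289 FPKM, and Spp1, with 4.79 and 4.37 FPKM and 5.43 and 8.79 FPKM. By limma voom their interaction adjusted p-values were 0.24, 0.24 and 0.27. Mup16, Slc25a30 and Car14, a carbonic anhydrase, fell in males and had log2 ratios of 0.86, 0.26 and 0.45 in females, with interaction adjusted p-values of 0.27, 0.31 and 0.27 by limma voom. Ccng1 and BC089597 rose in males and had log2 ratios of 0.09 and -0.43 in females (limma voom interaction adjusted p 0.27 and 0.31).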

How the data were processed

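Liver RNA was sequenced from pooled livers. TopHat2, featureCounts, edgeR and the build mm9 are named in the submitters' processing notes, without versions. Per the file headers, the authors deposited a mean FPKM for each group and, for each comparison, a normalized ratio (fold) and p-values from edgeR with their adjusted values. Calls reported first are those at an adjusted p-value under 0.05 in that deposited table.

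Reads of single libraries were solved from the deposited FPKM means, since each mean averages 2 ratios of whole reads to library totals. All 18004 genes not at 0 were solved, within 1e-08 reads, and recomputed means differed by at most 2.2e-11. Gene length was taken from the annotation for 3257 of them and searched for 14747, as the shortest that gave whole reads, so read numbers may be short by a common factor that leaves FPKM unchanged. The solution was checked on simulated data of searched length, mostly with 50 reads or more, and 262 of the 9317 genes had fewer in the male libraries. Library totals were 6192515 to 34651386. For 11 rows the leading symbol and coordinates belong to another gene, and the symbol beside the comparison was used. Coordinates span the listed transcripts.

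Limma 3.58.1 (R 4.3.3) was fitted to all 8 libraries with 4 residual degrees of freedom: voom on genes with at least 10 reads in at least 2 libraries, scaled by the median of ratios, and a trended fit on log2(FPKM + 0.1) as an alternative. P-values were adjusted over all genes tested by the Benjamini-Hochberg method. The voom fit was tested on simulated data with known changes in knockout males. It recovered 65 of 100 changes of 2-fold and 95 of 100 of 4-fold. Of its 176 calls at an adjusted p under 0.05, 16 were false. A floor of 3 reads over a group, which covers counting error only, was used for genes at 0.

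Members and lists were chosen with earlier results of these data known. Named genes were the growth hormone pathway, up to 6 called genes without overlap in each list, the 15 largest rises and 15 largest falls at 10 FPKM or more, the 15 highest in control males and 10 by interaction p. Others were named after their values were seen, among them those given as not called. Some genes that the rule names are not reported here.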

Additional observations from a re-analysis of the deposited data

Results flagged for a closer look

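The knockout effects in males and females stood apart for the genes below, for 2 of them by a test of the difference. For Cyp2b13 the male minus female difference in limma on log2(FPKM + 0.1) was 8.36 on the log2 scale with an adjusted p of 0.0125, and limma voom gave 8.77 (adjusted p = 0.22). Females stood at 61.8 and 46.9 FPKM in controls and 45.4 and 53.2 FPKM in knockouts. Snord93, a small nucleolar RNA gene, had a difference of 7.66 with the same adjusted p of 0.0125, and rests on 2 and 1 reads in knockout and 0 and 0 reads in control males, both under or at the floor of 3 reads. It overlaps 2700038G22Rik in the listing.

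Another 5 genes were called in both sexes in opposite directions with no overlap within either sex, and neither interaction test called the difference. The male minus female difference of log2 ratios was 5.22 for Cyp2a4, 4.22 for Serpina3h and 3.55 for Slc22a26, all higher in knockout males and lower in knockout females. Cyp2a4 had 171 and 149 FPKM in control and 98.7 and 100.3 FPKM in knockout females, and Serpina3h 0.134 and 0.236 FPKM and 0.692 and 1.97 FPKM in males. It was -5.51 for Gm6614 and -3.68 for Mup20, which were lower in knockout males and higher in knockout females. Gm6614 had 11.7 and 3.97 FPKM in control and 1.29 and 3.696 FPKM in knockout males. Mup20 had 6.09 and 7.13 FPKM in control and 14.7 and 16.4 FPKM in knockout females.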

How the results depend on the processing

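No paired analysis was possible because the recovered libraries carry no pool number. The count of 265 genes called higher and 157 lower was 89 and 89 with limma voom, 56 and 6 with limma on log2(FPKM + 0.1), 37 and 3 with limma on log2(FPKM + 1), and 139 and 103 at a floor of 5 FPKM. The voom counts, on leaving out each male library in turn, ran from 22 to 135 higher and from 21 to 105 lower, lowest for rises without the deeper control (22, and 37 without the shallower control) and for falls without the deeper knockout library (21), and highest without the shallower knockout library (135 and 105). Counts of genes changed by at least 2-fold were 188 and 119 with a pseudocount of 1 and 125 and 91 at a floor of 5 FPKM, in place of 293 and 196. Other alternatives kept these counts within 1.5 times. Of the named genes, only Mup15 changed direction under another pseudocount, the authors' ratio or without any 1 library: the log2 ratio of Mup15 ran from -7.72 without the shallower control to 0.35 without the deeper control, which alone held its control reads. Over the lists, voom without 1 library in turn called 7 to 19 male-biased genes lower, 4 to 17 female-biased and 8 to 13 acute phase genes higher, 1 to 6 antigen presentation genes higher and 4 to 11 Mup genes lower. These list counts were added after the data were seen. The cause of these differences was not tested, and 2 pools a side, 1 of them shallow, limit what low transcripts can show.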
